A study of Homo sapiens with 4 samples.

Results

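Replication-dependent histone genes were measured in the established neuroblastoma line SH-SY5Y after knockdown of LSD1+8a. LSD1, encoded by KDM1A, removes methyl groups from histones, and LSD1+8a is its neuronal splice form with an additional exon. A transcript cluster, the array's unit for a gene, was taken where the platform table gave it 1 symbol and that symbol was a replication-dependent histone name, old or current. This gave 35 clusters, from which 2 pseudogene clusters and the dimmer of 2 clusters for H2BC11 were left out. The 32 remaining genes, of 22465 genes tested, comprised 6 of type H1, 9 of H2A, 15 of H2B and 2 of H4. No H3 gene had a cluster of its own under this rule. Cells with control shRNA (2 arrays) were compared with cells with LSD1+8a shRNA (2 arrays). Cells of both groups were treated with 10 μM retinoic acid for 4 days and then with 50 ng/mL BDNF, a neurotrophin, for 3 days without serum. The cells are a cultured tumour line and not neurons, and the labels do not say whether infected cells were pooled or cloned. Nor do they say that the replicates are separate cultures, and the p-values then cover array-to-array spread alone, which may be technical.

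Replication-dependent histone genes supply the bulk of new chromatin protein while DNA is copied. Core histones H2A, H2B, H3 and H4 form the nucleosome, and the linker histone H1 binds where DNA enters and leaves it. The genes lie in groups and each core histone is encoded by many near-identical copies. The mRNAs of replication-dependent histone genes mostly end in a stem-loop that is bound by SLBP, instead of a poly(A) tail. Such mRNAs accumulate in S phase and are degraded when DNA synthesis stops. Cells that leave the cycle during neuronal differentiation therefore usually hold little of these mRNAs and rely more on variants made outside S phase. The copies resemble each other closely, so a value credited to 1 copy may hold signal of others.

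The arrays were judged first by the targeted gene and by the cell line's markers. KDM1A read 9.10 and 9.25 in control cells and 8.76 and 8.78 with LSD1+8a shRNA (log2 signal). This was a fall of 1.32-fold (limma adjusted p = 0.0299) in a value that covers the gene as a whole and does not isolate the extra exon. The call was lost after quantile normalization (adjusted p = 0.0610), after cyclic loess (0.0573), over all transcript clusters (0.0735) and without any 1 array (0.0559 to 0.194), while the difference stayed negative in these limma fits. Of 12 adrenergic neuroblastoma markers, 11 were measured, with a median log2 signal over genes of 9.64, against 6.14 for 3 measured glial markers, 5.37 for 5 fibroblast markers and 5.02 for 3 blood cell markers, while the median gene stood at 6.21. Median log2 signals of the glial markers were 6.16 and 6.02 in control and 6.23 and 6.29 in LSD1+8a cells. Of them SOX10 and GFAP were called higher (differences 0.34 and 0.33). In the fibroblast list LUM was called lower (-0.58) and the other 4 were not called, with a median difference of 0.16 over the list, and no blood cell marker was called. In the adrenergic list CHGB (0.67), GATA3 (0.47) and TH (0.35) were called higher, ISL1 (-0.46) lower and 7 not. The part of other cell types in the results was not tested. Of all genes, limma called 11.2% lower and 12.1% higher at an adjusted p of 0.05. Leaving out control replicate 1 or control replicate 2 left no gene called in the whole table (9835 and 5339 genes at an unadjusted p under 0.05).

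Histone signal was lower with the LSD1+8a shRNA, with a negative median difference in each type measured. For H4 this median (-0.62) is the midpoint of only 2 genes, H4C3 (-1.19) and H4C7 (-0.04), and H4C7 lay far below background. Of the 32 members, 16 fell, 1 rose and 15 were not called, where 11.2% of all genes were called lower and 12.1% higher. Over members, the control arrays had median log2 signals of 6.82 and 6.96, and the LSD1+8a arrays 6.42 and 6.26. The median difference was -0.53 on the log2 scale (1.45-fold lower), beside 0.08 for all genes. In 26 members both LSD1+8a arrays lay below both control arrays, and in 1 both lay above, against 27.7% and 46.7% of all genes. Of the 32 members, 13 were called and at least 1.5-fold lower, where 2.98% of all genes were, and 4 were called and at least 2-fold lower, where 0.57% of all genes were. Among genes above the median level, 12 of 18 members were called lower, where 17.5% of such genes were. In bulk RNA, fewer cells in S phase and less histone mRNA per cell cannot be told apart. Without control replicate 1 or without control replicate 2, the count of members called was 0, while 22 and 15 members were lower at an unadjusted p under 0.05 and the median differences were -0.62 and -0.40.

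**Figure D1:**
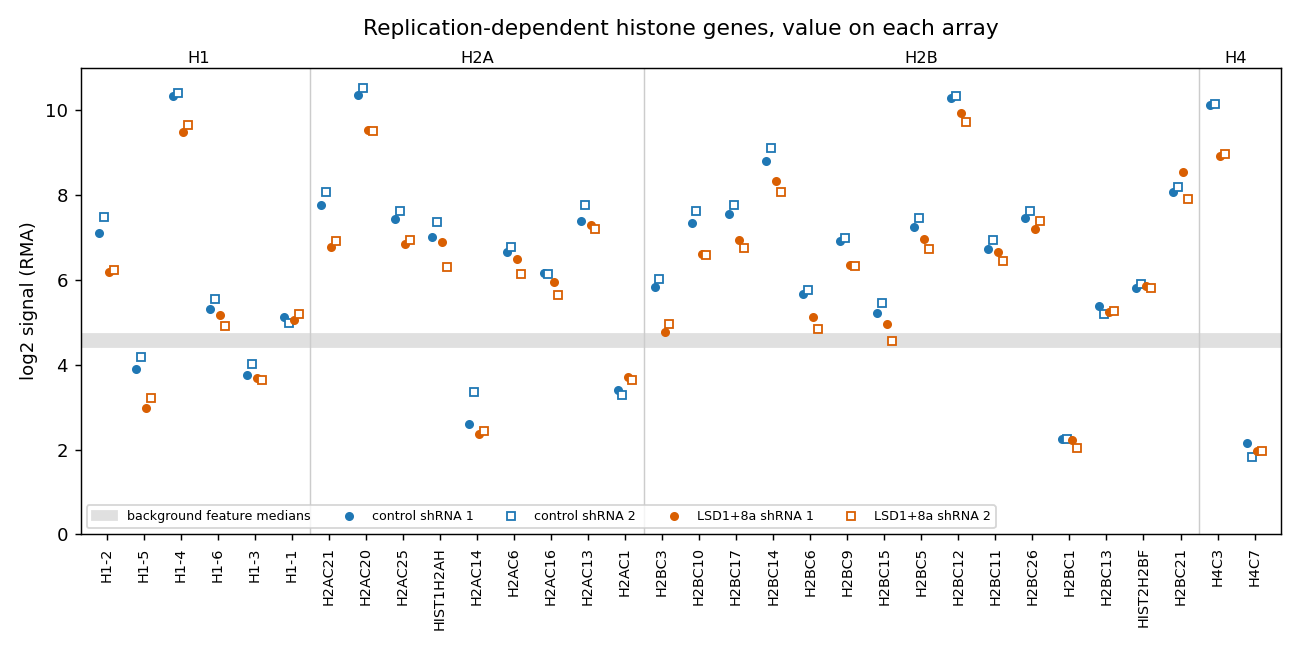
Log2 signal (vertical axis) of each of the 32 histone genes on each array, ordered by histone type and then by size of difference; blue marks are control shRNA arrays, orange marks LSD1+8a shRNA arrays, circles replicate 1 and squares replicate 2, and the grey band spans the medians of background features on the 4 arrays. Orange marks lie below blue ones in 26 genes, and 6 genes lie below the band on every array.

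Signal level set how well a difference could be read. Background features of GC counts 13 to 18 had medians of 4.43 to 4.72 on the 4 arrays, a rough guide since the base composition of the probes was not used here. The 6 members H1-3, H1-5, H2AC1, H2AC14, H2BC1 and H4C7 lay at or below it on all 4 arrays, and H2BC15 on 1. H2AC1 and H2BC1 are known as testis histone genes. Among the 25 members above background on every array, 14 fell, 0 rose and 11 were not called, with a median difference of -0.59. Among the other 7, 2 fell and 1 rose, and sizes there are uncertain. Brighter members tended to have larger falls (Spearman's rho of mean level and difference -0.40 over 32 members), and a weaker relation of the same sign was seen over all genes (-0.29). Both are descriptions over genes that share the same 4 arrays.

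Of the 6 linker histone genes, 3 fell and 3 were not called, where 11.2% of all genes were called lower. H1-2 encodes one of the main somatic H1 proteins. It read 7.10 and 7.47 in control cells and 6.18 and 6.23 with LSD1+8a shRNA. The groups were far apart, with a difference of -1.08 ± 0.13 (SE; 2.12-fold lower; limma adjusted p = 0.00834). H1-4, the brightest linker histone gene here, read 10.33 and 10.40 against 9.49 and 9.65. Its difference of -0.80 ± 0.09 (SE) corresponds to a 1.74-fold fall (limma adjusted p = 0.00834). H1-5 was called lower too (-0.93 ± 0.13, SE; limma adjusted p = 0.0115), from 3.89 and 4.18 to 2.99 and 3.22, all below background. H1-6, the testis linker histone, read 5.31 and 5.54 in control and 5.18 and 4.91 in LSD1+8a arrays. Its groups did not overlap, but the difference of -0.38 was not called (limma adjusted p = 0.0582). H1-3 (-0.22) and H1-1 (0.07) were not called either, and of these only the groups of H1-1 overlapped. The median difference over the 6 genes was -0.59, and -0.66 and -0.51 without control replicate 1 and without control replicate 2.

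Of the 9 H2A genes, 3 fell, 1 rose and 5 were not called, with a median difference of -0.57. Among all genes 11.2% were called lower and 12.1% higher. H2AC20, which belongs to the histone group on the long arm of chromosome 1, was the brightest member of this type. It read 10.36 and 10.53 in control cells and 9.53 and 9.51 with LSD1+8a shRNA, a 1.90-fold fall (-0.93 ± 0.09, SE; limma adjusted p = 0.00612). Its neighbour H2AC21 read 7.77 and 8.07 against 6.77 and 6.92. That is a 2.11-fold fall (-1.07 ± 0.12, SE; limma adjusted p = 0.00713), and both LSD1+8a arrays lay well below both control arrays. H2AC25, of the smaller HIST3 group on the same chromosome, fell 1.55-fold, from 7.42 and 7.62 to 6.85 and 6.94 (limma adjusted p = 0.0163). Of the 5 H2A genes not called, 4 had adjusted p between 0.0556 and 0.0799 in limma. For HIST1H2AH, named H2AC12 in RefSeq, LSD1+8a replicate 2 set most of the difference. That gene read 7.003 and 7.37 in control and 6.89 and 6.30 in LSD1+8a cells, and its difference of -0.59 became -0.30 when LSD1+8a replicate 2 was left out and -0.88, which was called, when the other LSD1+8a array was. The brightest H2A gene without a call was H2AC13, with 7.38 and 7.75 against 7.30 and 7.20 (limma adjusted p = 0.103). The H2A median was -0.30 when LSD1+8a replicate 2 was left out and -0.37 when control replicate 2 was.

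The rise concerned H2AC1, a testis H2A gene. It read 3.40 and 3.28 in control cells and 3.71 and 3.64 with LSD1+8a shRNA (0.33 ± 0.09, SE; limma adjusted p = 0.0412). All 4 values lay below the background medians, which themselves were higher on the LSD1+8a arrays (4.71 and 4.72, against 4.50 and 4.43). The call was lost after quantile normalization, after cyclic loess, with array medians centred, without any 1 array and when all transcript clusters were tested (adjusted p from 0.0651 to 0.203 in these limma fits).

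H2B had the most members and the most calls, with 9 of 15 genes lower, 0 higher and 6 not called, and a median difference of -0.50. Beside this, 11.2% of all genes were called lower and 12.1% higher. H2BC3 read 5.84 and 6.03 in control cells and 4.78 and 4.95 with LSD1+8a shRNA, the latter close to background. It fell 2.09-fold (-1.07 ± 0.10, SE; limma adjusted p = 0.00587), the largest fall among H2B members. H2BC10 read 7.34 and 7.62 against 6.61 and 6.59, a 1.84-fold fall (limma adjusted p = 0.00943). H2BC17 read 7.55 and 7.77 against 6.93 and 6.75, a 1.77-fold fall (limma adjusted p = 0.0115). These core histone genes and H2BC14, which fell 1.68-fold from 8.79 and 9.10 to 8.32 and 8.08 (limma adjusted p = 0.0194), lie in the large HIST1 group on chromosome 6. The other 5 called members, H2BC6, H2BC9, H2BC15, H2BC5 and H2BC12, had differences from -0.71 to -0.49. H2BC12, the brightest H2B gene, read 10.29 and 10.33 in control and 9.93 and 9.72 in LSD1+8a cells, a difference of -0.49 that was called lower (limma adjusted p = 0.0250). It was no longer called after quantile normalization (-0.30, adjusted p = 0.0598), and H2BC5 was called neither after quantile normalization (adjusted p = 0.0503) nor after cyclic loess (0.0512).

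The brightest H2B gene that was not called was H2BC21, at 8.07 and 8.18 in control cells and 8.53 and 7.90 with LSD1+8a shRNA. The control arrays lay between the LSD1+8a arrays, and the difference of 0.09 ± 0.19 (SE; limma adjusted p = 0.722) was 0.40 when LSD1+8a replicate 2 was left out and -0.23 when LSD1+8a replicate 1 was, neither called. HIST2H2BF, named H2BC18 in RefSeq and part of the same HIST2 group, and H2BC13 of the HIST1 group had differences of -0.03 and -0.05 with overlapping groups. A brighter cluster names HIST2H2BF beside another symbol and so cannot be credited to it alone. It read 9.40 and 9.50 in control and 9.17 and 9.14 in LSD1+8a cells. Its groups did not overlap, but the difference of -0.30 was not called over all transcript clusters (limma adjusted p = 0.101). H2BC11 had 2 clusters that disagreed in size. The brighter, used here, read 6.72 and 6.94 against 6.64 and 6.44 (-0.29; limma adjusted p = 0.0883), and the other read 6.96 and 7.15 against 6.14 and 6.08. The mean of both clusters was called lower (-0.62; limma adjusted p = 0.0176).

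H4C3, a core histone gene of the HIST1 group, had the largest fall of any member. It read 10.13 and 10.14 in control cells and 8.91 and 8.98 with LSD1+8a shRNA. Replicates lay close together and the groups far apart, and the difference of -1.19 ± 0.08 (SE) is a 2.28-fold fall (limma adjusted p = 0.00356). The other H4 gene, H4C7, lay near 2 on every array, far below background, and was not called (-0.04; limma adjusted p = 0.811).

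**Figure D2:**
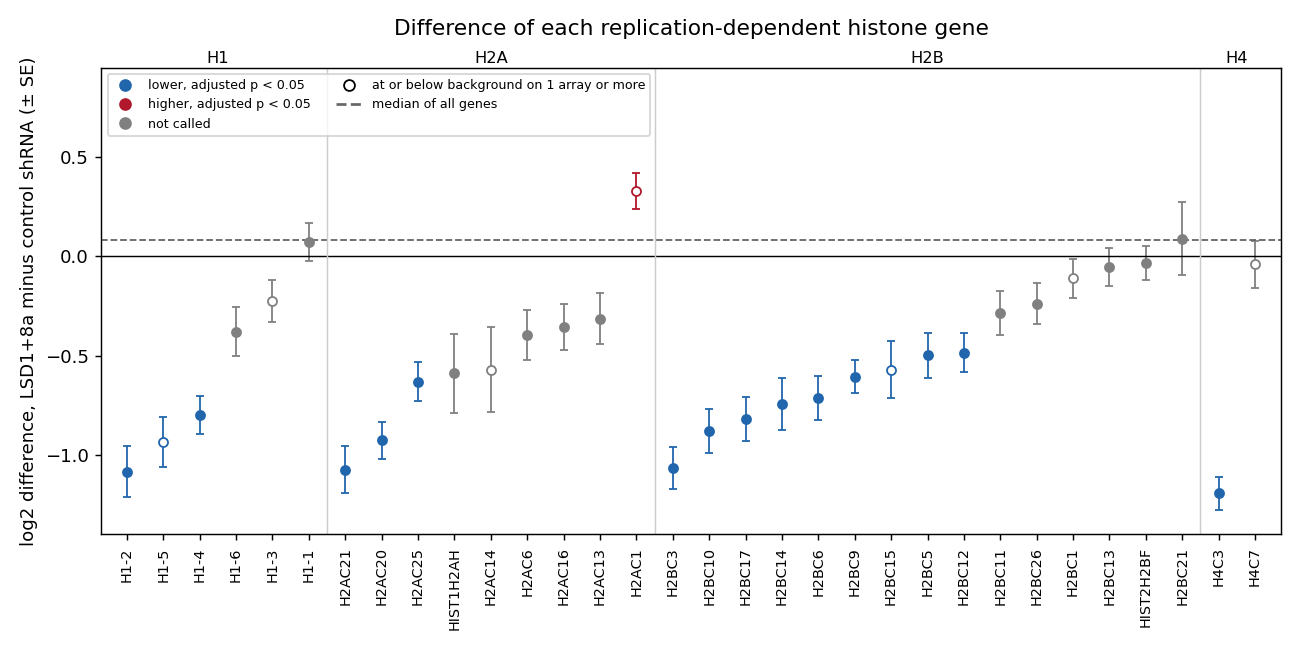
Difference in log2 signal, LSD1+8a minus control shRNA (vertical axis), with limma's standard error as bars, for each histone gene by type; blue marks were called lower, red higher and grey not called at an adjusted p of 0.05, open marks lay at or below background on 1 array or more, and the dashed line is the median of all genes. Falls reach -1.19 (H4C3), and the 1 rise, H2AC1 at 0.33, is an open mark.

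By position, the 26 genes of the HIST1 group on chromosome 6 had 13 members called lower and 1 higher, with a median difference of -0.53. Of all genes, 11.2% were called lower and 12.1% higher. In the HIST1 group 19 members lay above background on every array, with 11 called lower and 0 higher. The HIST2 group on chromosome 1 had 2 of 4 called lower (median -0.48) and the HIST3 group 1 of 2 (median -0.43). With 4 and 2 genes, the chromosome 1 groups give no ground for an order between groups.

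The 2 control arrays also differed from each other in histone signal. In 27 of 32 members control replicate 2 was above control replicate 1, with a median difference, replicate 1 minus replicate 2, of -0.18, beside 0.02 for all genes. Between the LSD1+8a arrays this median was 0.04 for the members and -0.02 for all genes. What set control replicate 2 above control replicate 1 was not tested.

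Outside the rule, H3-4, a testis H3 gene (difference 0.06, overlapping groups), H3-5 and CENPA, the centromeric H3, had clusters of their own. H3-5 lay below background on every array and was not called (-0.27; limma adjusted p = 0.0522), though its groups did not overlap. CENPA was called lower (-0.39). The H3 genes under the rule and most H4 genes could be followed only through clusters to which the platform table gives several symbols. There were 37 such histone clusters, 7 of H2A, 3 of H2B, 12 of H3, 13 of H4 and 2 of mixed or partly pseudogene content. They cannot be credited to single genes, so they were tested in a fit of all 67528 transcript clusters, where 1.08% were called lower and 0.222% higher. In that fit 15 of the 37 fell and 0 rose, and all 37 differences were negative, with a median of -0.71. Several clusters name the same genes, and each of the 13 H4 clusters carries 14 symbols. The 37 clusters are therefore not separate measurements. In 34 of 37 both LSD1+8a arrays were below both control arrays, beside 21.4% of all transcript clusters, and in 0 both were above, beside 44.1%. All 15 called clusters were at least 1.5-fold lower, where 1.05% of all transcript clusters were called and that much lower. The 32 members had 10 calls in the same fit.

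All 12 H3 clusters with several symbols had groups that did not overlap, with 5 called lower and a median of -0.76. The H3 cluster TC06001342.hg.1 read 8.14 and 8.23 in control cells and 6.77 and 6.41 with LSD1+8a shRNA, a 3.02-fold fall (-1.59 ± 0.14, SE; limma adjusted p = 0.0269). The brightest H3 cluster, TC06001427.hg.1, read 10.04 and 10.32 against 9.30 and 9.46, a 1.74-fold fall (limma adjusted p = 0.0460). The 13 H4 clusters were spread more widely, with 6 called lower and differences from -1.27 to -0.09. TC06001424.hg.1, the brightest, read 9.60 and 9.93 against 8.38 and 8.60 (2.42-fold lower; limma adjusted p = 0.0299). TC06001355.hg.1 read 6.65 and 6.73 against 6.82 and 6.19, with overlapping groups. The clusters TC06000173.hg.1 and TC06001343.hg.1 of the H2A type, which name the same pair of genes, had similar falls of 2.43-fold and 2.44-fold (limma adjusted p = 0.0296 and 0.0421). These clusters were singled out after their values were seen.

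**Figure D3:**
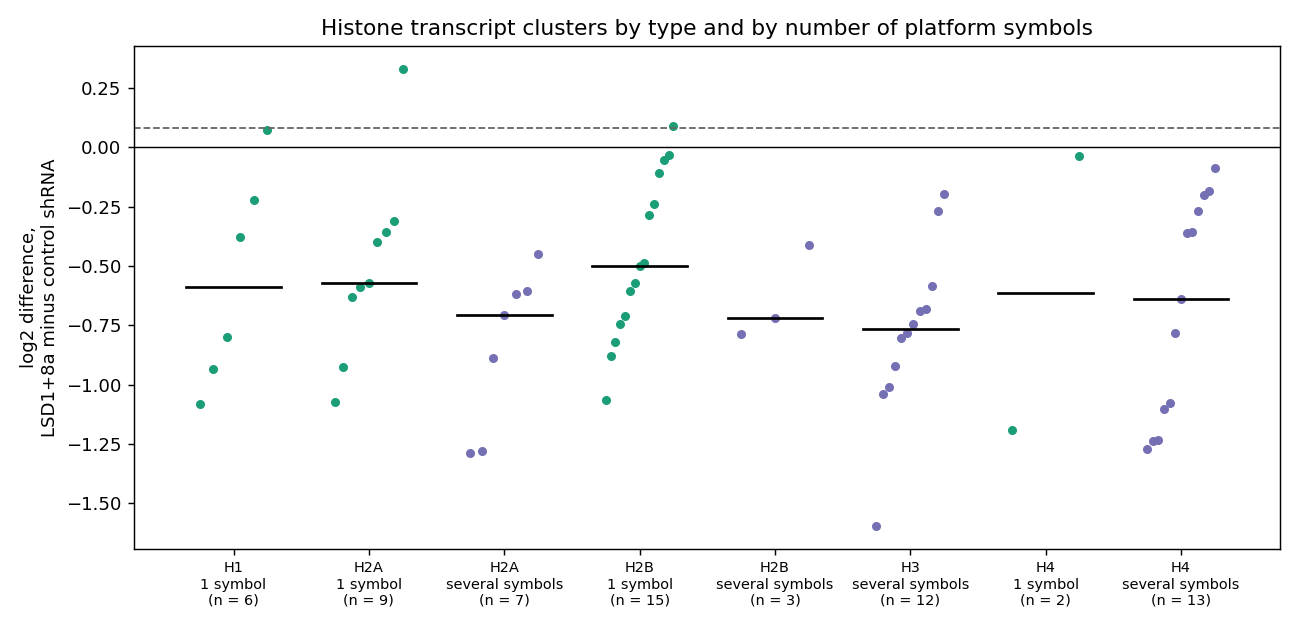
Difference in log2 signal, LSD1+8a minus control shRNA (vertical axis), of histone transcript clusters by histone type, green for the 32 genes with 1 platform symbol and purple for clusters with several symbols of 1 type; horizontal bars are medians and the dashed line is the median of all genes. Medians lie between -0.50 and -0.76 in every column, and the lowest point is an H3 cluster at -1.59. The H4 column with 1 symbol holds only 2 genes, of which H4C7 lay far below background.

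Promoter sequences are shown for the elements found in them. RefSeq promoter sequences (GRCh38.p14) were held for 30 of 32 members, not for H4C3 or HIST1H2AH, and the 250 bases before each start were searched on both strands for the TATA box (TATAAA), for the CCAAT box (those letters), for the octamer ATTTGCAT, known from H2B promoters, and for the AC box known from H1 promoters (AAACACA). The CCAAT box was found in 29 of 30 members, beside 33.0% of 27305 promoters. The octamer was found in 11 of 15 H2B and 6 of 8 H2A promoters and in 0 of 6 H1 promoters, beside 1.66% of all promoters. The AC box was found in 6 of 6 H1 promoters and in 0 of 15 H2B promoters, beside 4.95% of all. The TATA box was found in 20 of 30, beside 11.1% of all. Members called lower and other members held these letters about equally often, but the groups share DNA. H2AC20 and H2BC21, H2BC14 and H2AC14, and H2AC25 and H2BC26 start back to back. Of these, H2AC20, H2BC14 and H2AC25 were called lower and their partners were not. The partners H2AC14 (-0.57, below background) and H2BC26 (-0.24) were lower too, with groups that did not overlap. The groups of H2BC21 (0.09) overlapped. Most of the bases searched are the same for both partners, so near-equal counts are in part built in and no conclusion is drawn. The octamer was in 9 of 15 promoters of members called lower and in 8 of 15 of the others, the TATA box in 9 and 11, the CCAAT box in 15 and 14, and the AC box in 3 and 3. These are matches of letters and not shown to be bound. The 120 bases upstream of 4 called members follow, with the searched motifs in capitals, 2 linker histone genes first (H1-2 at chr6:26056471-26056590, minus strand; H1-4 at chr6:26156209-26156328, plus strand) and then 2 H2B genes (H2BC3 at chr6:26043714-26043833, minus strand; H2BC14 at chr6:27814902-27815021, plus strand).
H1-2: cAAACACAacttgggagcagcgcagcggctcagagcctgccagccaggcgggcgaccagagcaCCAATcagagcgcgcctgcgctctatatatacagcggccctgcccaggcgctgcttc
H1-4: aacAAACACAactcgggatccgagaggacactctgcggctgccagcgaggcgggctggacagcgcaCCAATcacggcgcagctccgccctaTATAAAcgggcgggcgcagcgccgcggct
H2BC3: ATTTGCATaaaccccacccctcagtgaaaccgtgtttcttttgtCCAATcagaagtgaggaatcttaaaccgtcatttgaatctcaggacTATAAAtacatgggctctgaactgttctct
H2BC14: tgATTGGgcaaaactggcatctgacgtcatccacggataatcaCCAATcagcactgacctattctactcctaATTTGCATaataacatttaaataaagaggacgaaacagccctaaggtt

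Of the members, 10 formed 5 pairs of an H2A and an H2B gene that start back to back, with 214 to 244 bases between the 2 starts. In such a pair 1 stretch of DNA serves as the upstream region of both genes. The pair H2BC21 and H2AC20 holds both the brightest H2A member and the brightest H2B member without a call. The 235 bases between their starts (chr1:149886683-149886917, GRCh38.p14, shown on the plus strand with the same motifs in capitals, H2BC21 starting to the left and H2AC20 to the right) hold 1 octamer, the CCAAT box on either strand 3 times and a TATA box match near each end.
H2BC21/H2AC20: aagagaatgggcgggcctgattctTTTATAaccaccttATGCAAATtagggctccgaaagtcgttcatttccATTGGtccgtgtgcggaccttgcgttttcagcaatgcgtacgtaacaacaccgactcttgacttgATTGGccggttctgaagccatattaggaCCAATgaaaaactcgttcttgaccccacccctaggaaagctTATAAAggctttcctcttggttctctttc

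Across this stretch H2AC20 fell by 0.93 on the log2 scale, and H2BC21 had a difference of 0.09 and was not called. The log2 signal of H2AC20 minus that of H2BC21 was 2.29 and 2.35 in control and 0.998 and 1.61 in LSD1+8a cells. Only the change of this gap between groups can be read, since the probes of different clusters are not on a common scale. The groups did not overlap in this gap. The pair was singled out after its values were seen, and the difference in response between the partners was not tested. In the pair H2AC25 and H2BC26, H2AC25 fell by 0.63 on the log2 scale and H2BC26, at 7.46 and 7.61 against 7.20 and 7.39, had a difference of -0.24 (limma adjusted p = 0.113). In the pair H2AC14 and H2BC14, H2BC14 fell and H2AC14 lay below background. H2AC14 had a difference of -0.57 with groups that did not overlap, and was not called (limma adjusted p = 0.0799). In the pair H2BC13 and H2AC13 neither gene was called. The pair H2AC1 and H2BC1, both testis genes, lay below background throughout.

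**Figure D4:**
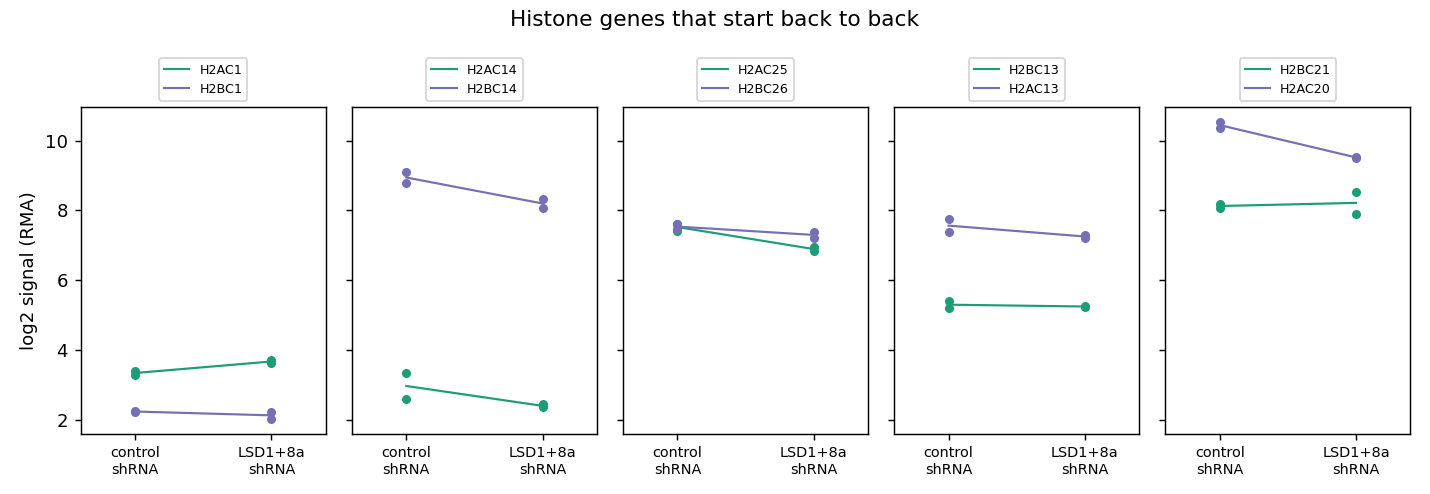
Log2 signal (vertical axis) of the 5 pairs of H2A and H2B genes that start back to back, 1 panel per pair, with 1 point per array and a line between group means. In the panel of H2BC21 and H2AC20 the upper line has a difference of -0.93 and the lower a difference of 0.09.

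Genes that transcribe, process and deposit histones were read beside the members, together with DNA synthesis genes. Of 20 DNA synthesis genes listed, 18 were measured, and 13 fell, 0 rose and 5 were not called. Of all genes 11.2% were called lower and 12.1% higher, and of genes above the median level 17.5% were called lower. The median difference of the list was -0.52, close to the -0.53 of the histone members. PRIM1, a primase subunit, fell 2.10-fold from 7.31 and 7.42 to 6.36 and 6.24, and PCNA, the polymerase clamp, fell 1.99-fold from 8.07 and 8.29 to 7.10 and 7.26. GINS2 of the replicative helicase, MCM10, an initiation factor, and TYMS, which makes thymidylate, fell 1.90-fold, 1.76-fold and 1.65-fold. All 18 had groups that did not overlap, lower with LSD1+8a shRNA, where 27.7% of all genes did. Whether the fall in histone mRNA and that in DNA synthesis genes are linked was not tested.

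Of 24 genes of histone transcription and 3′ processing, 23 were measured, and 8 fell, 0 rose and 15 were not called, with a median difference of -0.19. Calls of a fall covered 11.2% of all genes and 17.5% of genes above the median level. CCNE2, cyclin E2, fell 1.84-fold, and its partner CDK2, the kinase that activates histone transcription at the start of S phase, fell 1.57-fold. NPAT, the substrate of that kinase and the shared co-activator of these genes, read 7.53 and 7.66 in control and 7.18 and 6.98 in LSD1+8a cells (1.43-fold lower; limma adjusted p = 0.0244). CPSF2, a subunit of the complex that cuts the 3′ end, and NCBP1, of the cap-binding complex, had differences of -0.51 and -0.49, both called lower. SLBP, which binds the stem-loop, read 7.98 and 8.05 against 7.80 and 7.91. Its groups did not overlap, but the difference of -0.16 was not called (limma adjusted p = 0.193). LSM10 and LSM11, of the histone-specific U7 particle, and HINFP, a factor for H4 genes, were not called (-0.12, -0.19 and 0.05).

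Of 24 histone chaperone and deposition genes, 23 were measured, with 12 lower, 0 higher and 11 not called and a median difference of -0.30. Beside this, 11.2% of all genes and 17.5% of genes above the median level were called lower. MMS22L, a replication fork factor, fell 1.86-fold from 5.89 and 6.20 to 5.17 and 5.14. HAT1, which acetylates new H4, NASP, a chaperone of H3 and H4, and CHAF1B, of the assembly complex CAF-1, were called lower with differences of -0.58, -0.55 and -0.49, as was RBBP4, a subunit shared by CAF-1 and other complexes (-0.48). DAXX and UBN1, which place H3 outside replication, were not called (-0.15 and -0.14). In the same list ATRX (-0.35; limma adjusted p = 0.0593) and CABIN1 (0.13) were not called either, and HJURP was called lower (-0.45; limma adjusted p = 0.0236). Whether deposition outside replication changed was not tested. After quantile normalization and after cyclic loess 7 genes of this list were called lower instead of 12.

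The genes listed as replication-independent histone genes were also lower in part. Whether each of them is made outside S phase in these cells was not tested. Their falls are therefore not read as a change in histone supply outside replication. Of 19 listed, 12 had a cluster of their own, and 4 fell, 1 rose and 7 were not called, with a median difference of -0.21. Among all genes 11.2% were called lower and 12.1% higher, and among genes above the median level 17.5% were called lower. H2AZ1 and H2AZ2, which encode the H2A.Z variant, fell 1.49-fold and 1.42-fold, H2AZ1 from 7.38 and 7.65 to 6.87 and 7.0007 and H2AZ2 from 9.02 and 9.06 to 8.56 and 8.51. H2AX, the variant phosphorylated at DNA breaks, and CENPA, the centromeric H3, fell 1.33-fold and 1.31-fold. H1-8, the oocyte linker histone, rose by 0.34 on the log2 scale (6.14 and 5.96 to 6.44 and 6.34). The call was lost after quantile normalization, centring and cyclic loess (limma adjusted p of 0.0736, 0.0735 and 0.107) and over all transcript clusters (0.0981). It was also lost without any 1 array, where the differences ran from 0.25 to 0.43. The linker histone H1-10 and the macroH2A gene MACROH2A2 were not called (limma adjusted p = 0.214 and 0.998). The other macroH2A gene, MACROH2A1, was not called either (-0.26; limma adjusted p = 0.0550), but its groups did not overlap. H3-3A and H3-3B, which encode the H3.3 variant, had no cluster of their own and were not analysed here.

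**Figure D5:**
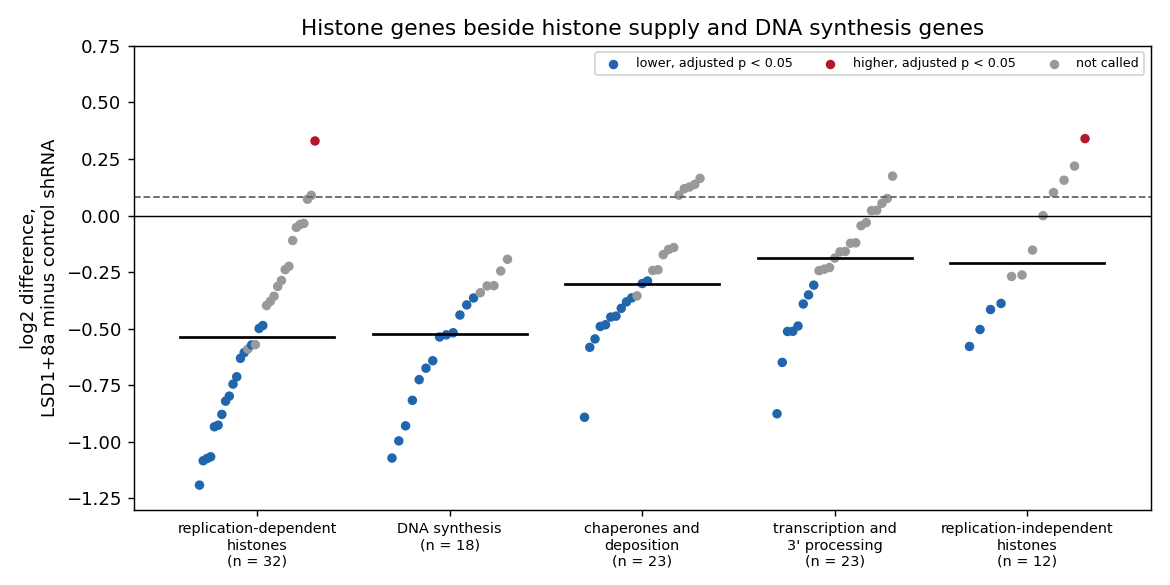
Difference in log2 signal, LSD1+8a minus control shRNA (vertical axis), of each gene in 5 sets, with blue for genes called lower, red for higher and grey for not called; black bars are medians and the dashed line is the median of all genes. Medians run from -0.53 for the replication-dependent histones and -0.52 for DNA synthesis to -0.19 for transcription and processing.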

How the data were processed

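The authors deposited log2 signals for 4 arrays of total RNA (250 ng each); the submitters' processing notes name RMA. Software versions and the array annotation's build: not given in the sources used here. RMA keeps no detection call. Genes were named from the platform table (23781 clusters with 1 symbol, 1543 with several, 42204 unnamed), keeping the cluster with the highest mean per gene. All 32 members matched RefSeq. Groups were compared with limma 3.58.1 in R 4.3.3 (lmFit, eBayes, no filter, no replicate term) over 22465 genes with Benjamini-Hochberg adjustment, checked on simulated data. The 2 residual degrees of freedom per gene, plus 5.41 from all genes, limit the precision. The labels do not say whether the replicate numbers pair the arrays. The correlation of same-numbered deviations was 0.02 over genes, which cannot settle this.

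The members and lists were chosen with earlier results of these data known. Values are given for up to 4 called members a type, members called higher, the brightest uncalled member a type, up to 5 called genes a list, SLBP and NPAT. Other genes and clusters were named after their values were seen. Figures used matplotlib 3.10.9.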

Additional observations from a re-analysis of the deposited data

How the results depend on the processing

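With 2 arrays a group, every count rests on both control arrays. Leaving out 1 array gave 0 to 20 members called lower and 0 called higher, 0 to 1974 genes called lower and 0 to 860 higher in the whole table, and medians of -0.62 to -0.38 for all members, -0.66 to -0.51 for H1 and -0.61 to -0.38 for H2B. In the same runs 0 to 5 processing genes, 0 to 6 chaperone genes, 0 to 2 replication-independent histone genes and 0 to 10 DNA synthesis genes were lower, 0 replication-independent genes were higher, the chaperone median was -0.35 to -0.26 and the DNA synthesis median -0.51 to -0.46. With the replicate block 22 members were called lower, among them all 16, and 4425 genes were higher in the whole table. The labels do not say whether the replicate numbers pair the arrays. Testing all transcript clusters called 10 members lower (731 clusters lower, 150 higher), with 2 processing, 1 chaperone, 0 replication-independent and 6 DNA synthesis genes lower and 0 members or replication-independent genes higher. At a threshold of 0.01 these were 7 members, 152 and 24 genes, and 0, 1, 0 and 4 list genes, again with 0 higher, and at 0.10 there were 3872 genes lower and 5704 higher. Quantile normalization, centring and cyclic loess left 14, 16 and 14 members lower, each among the 16, and 0 members and 0 replication-independent genes higher. As deposited, the calls over all genes were 2524 lower and 2721 higher, against 1882 and 1433 after quantile normalization, 2736 and 1109 after centring and 1763 and 680 after cyclic loess. Chaperone medians were -0.23, -0.35 and -0.26 (7 genes lower after quantile normalization and 7 after cyclic loess), DNA synthesis medians -0.45 after quantile normalization and -0.46 after cyclic loess, the H1 median -0.64 after centring and the replication-independent median -0.13 after quantile normalization. Among genes above the median level, 1323 were higher, 0 members were higher, and medians were -0.94 over 2 H1 genes, -1.19 for 1 H4 gene and -0.33 for 8 replication-independent genes. No member's call changed sign in these runs.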

Other observations

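Histone clusters outside the 32 genes were tested in the fit of all transcript clusters. The pseudogene H2BC20P of the HIST2 group read 7.94 and 8.11 in control cells and 7.52 and 7.35 with LSD1+8a shRNA (-0.59 ± 0.11, SE; limma adjusted p = 0.0560), and the pseudogene H2AC2P had a difference of -0.09. H3-4, a testis H3 gene whose current symbol is outside the rule, had a difference of 0.06 with overlapping groups. The second cluster of H2BC11 was lower by 0.95 on the log2 scale in that fit (limma adjusted p = 0.0302). Beside the members named above, H2AC6 and H2AC16 had limma adjusted p of 0.0556 and 0.0572 over all genes, with differences of -0.40 and -0.36, and both were called when LSD1+8a replicate 1 was left out.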
